A study of Rattus norvegicus with 12 samples.

Results

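The 5 genes Cdk1, Ccna2, Mki67, Pcna and Myc, all known from cell proliferation, were followed in CD4+ T cells reactive to the myelin antigen myelin basic protein, recovered from 4 places of the rat during experimental autoimmune encephalomyelitis, an inflammation of the central nervous system (CNS). The genes were taken by their Ensembl identifiers, which are ENSRNOG00000000632 (Cdk1), ENSRNOG00000015423 (Ccna2), ENSRNOG00000028137 (Mki67), ENSRNOG00000021264 (Pcna) and ENSRNOG00000004500 (Myc). They are 5 of the 26405 genes in the files, and all 5 were among the 11498 genes with enough counts to be tested. The files hold identifiers without names, so the names are those given with the selection of the identifiers. Messenger RNA was sequenced in 12 libraries, 3 each from CNS parenchyma, spinal cord meninges, cerebrospinal fluid (CSF) and blood. Every library came from Lewis rats labelled wild type, and all cells carried green fluorescent protein (GFP), by which they were sorted in the cold. The labels give neither the ages of the animals nor the day of disease, and whether each library was made from other animals is not stated. The p-values rest on the spread among libraries of the same compartment, shared over the 4 compartments with 3 libraries each. Part of this spread may be technical.

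In dividing cells these genes act at different points. Myc is a transcription factor that T cells induce on activation and that raises growth and biosynthesis before division. Pcna forms the sliding clamp that holds DNA polymerase on its template, and it also serves in DNA repair. Ccna2, cyclin A2, activates cyclin-dependent kinases from S phase into mitosis. Cdk1 is the kinase that drives entry into mitosis, and Mki67 encodes Ki-67, a protein of the chromosome surface that is widely used to mark cycling cells. In this disease model, T cells specific for myelin are activated outside the CNS and then pass from the blood into the meninges, the CSF and the CNS tissue. The comparisons show the level of each gene relative to all counted RNA of the cells in each of these places. Amounts of RNA per cell were not measured.

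Libraries held between 11277725 and 22056664 counts over all genes. The share of entries aligned to several places, which were not counted for any gene, was 65.2% in blood library 3 and 61.4% in meninges library 2, and between 35.8% and 43.9% in the other libraries. Meninges library 3 had counts for 18299 genes, and the other libraries for 14525 to 16096. RefSeq names 3 pseudogenes after Pcna, 1 after Cdk1 and 1 after Mki67, so that reads of these genes that also match such a copy would be missing from the counts. The fewest counts of any of the 5 genes in a library were 172, for Ccna2 in meninges library 2, where counting error alone amounts to 7.62%. The identity of the sorted cells could not be checked against T cell markers or markers of other cells, because identifiers and names could not be paired for other genes. For the same reason other genes of the cell cycle are not counted here.

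Levels are in CPM, the counts of a gene scaled to a common library total, after TMM scaling, which adjusts that total for library composition. They are compared between compartments and not between genes, since CPM is not corrected for the length of the transcript. Differences were tested for all genes with edgeR's quasi-likelihood test in 1 fit of the 12 libraries, and a gene was called at a Benjamini-Hochberg adjusted p under 0.05. All 5 genes differed among the compartments, with adjusted p-values from 4.67e-06 for Mki67 to 0.00289 for Myc in edgeR's F test. Of all genes tested, 53.8% did so. Where libraries of different compartments are said below not to overlap, the share of all genes tested that did likewise was not counted.

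T cells in the CNS parenchyma, the meninges and the CSF had lower relative levels of Cdk1, Ccna2 and Mki67 RNA than T cells in the blood. All 3 genes fell in each CNS site. Ccna2 and Mki67 had their lowest means in the parenchyma, where Ccna2 was not called against meninges or CSF and Mki67 only against CSF. Cdk1 stood at 15.3, 14.2 and 27.2 CPM in the parenchyma libraries, at 16.5, 14.8 and 20.6 CPM in the meninges, at 16.9, 13.5 and 25.6 CPM in the CSF and at 43.6, 40.1 and 56.7 CPM in the blood. Every blood library thus lay above every CNS library, whereas the libraries of the CNS sites overlapped one another. The log2 fold change of Cdk1 against blood was -1.30 in parenchyma (SE 0.26, adjusted p = 0.000884), -1.43 in meninges (SE 0.26, adjusted p = 0.000858) and -1.34 in CSF (SE 0.25, adjusted p = 0.00119). In bulk RNA, fewer cycling cells, less RNA per cycling cell, and a larger share of RNA from other genes or other cells cannot be told apart.

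Ccna2, a cyclin partner of Cdk1, gave 12.1, 11.8 and 22.8 CPM in parenchyma, 17.3, 13.8 and 21.6 CPM in meninges, 21.6, 11.4 and 27.8 CPM in CSF and 50.4, 45.2 and 66.3 CPM in blood. Its CNS libraries again overlapped one another and none reached the lowest blood library. Its level fell 3.43-fold in parenchyma (log2 fold change -1.78, SE 0.30, adjusted p = 0.000287), 3.05-fold in meninges (-1.61, SE 0.30, adjusted p = 0.00111) and 2.68-fold in CSF (-1.42, SE 0.30, adjusted p = 0.00215), each against blood.

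Mki67 had 102, 84.3 and 150.1 CPM in parenchyma, 134, 133 and 175 CPM in meninges, 158, 149.8 and 205 CPM in CSF and 413, 427 and 548 CPM in blood. Every blood library again lay above every CNS library. The mean of 112 ± 34.0 CPM in parenchyma (SD, n = 3) was 24.3% of the blood mean of 463 ± 74.4 CPM. In meninges the mean was 31.8% and in CSF 36.9% of that in blood. The log2 fold change against blood was -2.04 in parenchyma (SE 0.20, adjusted p = 2.37e-06), -1.65 in meninges (SE 0.20, adjusted p = 3.07e-05) and -1.44 in CSF (SE 0.20, adjusted p = 9.26e-05). Of all genes tested, 1.52% had a lower log2 fold change than Mki67 between parenchyma and blood, 2.23% a lower one than Ccna2 and 5.26% a lower one than Cdk1.

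**Figure D1:**
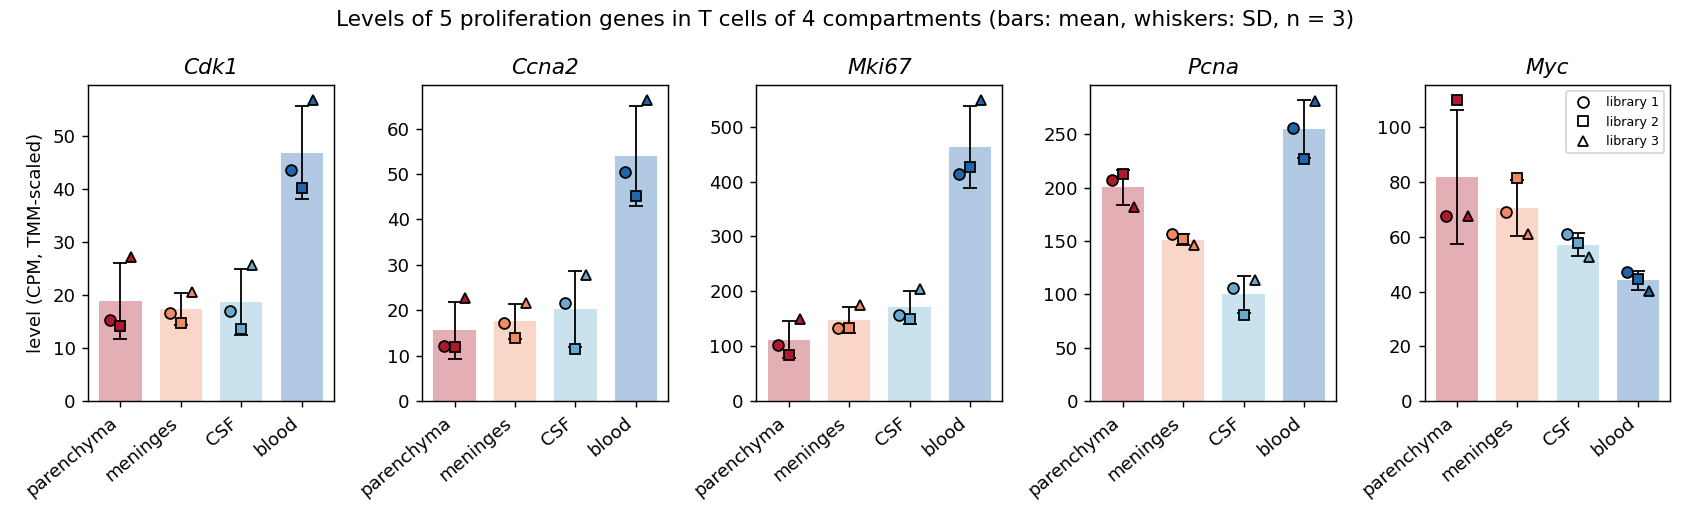
Levels of the 5 genes in CPM (vertical axes, from 0) in parenchyma, meninges, CSF and blood. Bars are means and whiskers SD of 3 libraries, and the symbols mark libraries 1, 2 and 3. Cdk1, Ccna2 and Mki67 are low in all CNS sites, Pcna is lowest in CSF with a mean of 100.1 CPM, and Myc has its lowest mean in blood, at 44.0 CPM.

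Promoter sequence is shown for Cdk1, Mki67 and Pcna, the genes of the 5 for which it was at hand. Promoters of many genes used late in the cell cycle carry the element TTTGAA, known as the cell cycle genes homology region, and CCAAT boxes upstream of it. The sequences are from RefSeq on rat build GRCr8, each from 250 bases before to 50 bases after the annotated start of the gene, and 3 of the 5 genes had one in the table. Ccna2 and Myc are the others. Capitals mark TTTGAA and CCAAT on either strand, where CCAAT on the opposite strand reads as ATTGG. On the opposite strand TTTGAA reads as TTCAAA.
Cdk1, chr20:19265043-19265342, plus strand: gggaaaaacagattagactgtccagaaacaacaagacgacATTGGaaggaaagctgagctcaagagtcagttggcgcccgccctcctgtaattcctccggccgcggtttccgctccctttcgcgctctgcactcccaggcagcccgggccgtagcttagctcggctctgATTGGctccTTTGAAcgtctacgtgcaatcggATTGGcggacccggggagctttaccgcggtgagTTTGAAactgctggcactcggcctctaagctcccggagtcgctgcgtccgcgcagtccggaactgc
Mki67, chr1:199952544-199952843, minus strand: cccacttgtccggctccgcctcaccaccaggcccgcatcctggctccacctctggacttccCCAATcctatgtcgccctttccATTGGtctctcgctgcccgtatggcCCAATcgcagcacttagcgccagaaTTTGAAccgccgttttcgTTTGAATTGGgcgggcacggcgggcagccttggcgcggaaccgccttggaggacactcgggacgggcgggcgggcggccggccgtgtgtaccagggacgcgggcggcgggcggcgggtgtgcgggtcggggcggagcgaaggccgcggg
Pcna, chr3:139955771-139956070, minus strand: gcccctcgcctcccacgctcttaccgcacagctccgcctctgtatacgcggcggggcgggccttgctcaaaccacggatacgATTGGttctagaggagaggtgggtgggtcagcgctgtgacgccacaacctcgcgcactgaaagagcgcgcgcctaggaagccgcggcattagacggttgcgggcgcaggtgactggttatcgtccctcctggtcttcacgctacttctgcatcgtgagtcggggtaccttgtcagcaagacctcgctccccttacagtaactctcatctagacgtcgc

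Counted from the start of the gene, the Cdk1 window held TTTGAA at -72 and -16 and ATTGG at -210, -81 and -49. The Mki67 window held TTTGAA at -117 and -99, CCAAT at -189 and -142 and ATTGG at -167 and -94, the last sharing its first base with the TTTGAA before it. The Pcna window held ATTGG at -168 and no TTTGAA on either strand. Among 33469 rat windows of the same length, 18.3% held TTTGAA on either strand, 37.5% held CCAAT on either strand and 7.41% held both. These matches describe the letters of the windows, and binding of a factor was not measured. No other elements were searched, and a link of these letters to the RNA levels was not tested.

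Pcna RNA was also lower in every CNS site than in blood, but the size of the difference depended on the site. It stood at 207, 212 and 182 CPM in parenchyma, 156, 152 and 146 CPM in meninges, 106, 80.4 and 114 CPM in CSF and 256, 227 and 281 CPM in blood. No library of any compartment overlapped a library of another, and the order was CSF, meninges, parenchyma and blood from the lowest to the highest. All neighbours in this order were called. The mean was 78.7% of the blood mean in parenchyma, 59.4% in meninges and 39.3% in CSF. Against blood the log2 fold change was -0.34 in parenchyma (SE 0.12, adjusted p = 0.0242), -0.75 in meninges (SE 0.12, adjusted p = 0.000258) and -1.35 in CSF (SE 0.12, adjusted p = 2.14e-06). The parenchyma difference was close to the threshold, and its adjusted p was 0.103 without blood library 3, 0.0568 without blood library 1, 0.0985 without parenchyma library 3 and 0.0506 without parenchyma library 1.

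Myc was the only gene of the 5 with higher levels in the CNS sites than in blood. Its levels were 67.7, 109.9 and 67.7 CPM in parenchyma, 68.9, 81.3 and 60.9 CPM in meninges, 61.0, 57.6 and 52.6 CPM in CSF and 47.2, 44.7 and 40.3 CPM in blood. The lowest CNS library, in CSF, still lay above the highest blood library. Myc, the growth regulator induced on activation, rose 1.85-fold in parenchyma (log2 fold change 0.89, SE 0.17, adjusted p = 0.000609) and 1.59-fold in meninges (0.67, SE 0.17, adjusted p = 0.00694), each against blood. In CSF the log2 fold change was 0.37 (SE 0.17) with an adjusted p of 0.0962. The adjusted p was 0.0181 when the library numbers were taken as pairs. It was 0.00915 without parenchyma library 2, which is outside this comparison but enters the shared spread, and 0.239 without blood library 3. Of 20 alternative fits 4 called this difference and 16 did not. Without blood library 3 and meninges library 2, the libraries with most entries aligned to several places, the difference between meninges and blood had an adjusted p of 0.0769, with a log2 fold change of 0.52. Parenchyma library 2 stood apart at 109.9 CPM, and without it the difference between parenchyma and blood was 0.63 on the log2 scale and was still called.

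Against blood, 5 of the 5 genes were called in parenchyma, where 50.3% of all genes tested were called, 5 of 5 in meninges, where 35.6% were, and 4 of 5 in CSF, where 37.5% were. Cdk1, Ccna2, Mki67 and Pcna were called lower in each of these comparisons, against 25.7%, 19% and 20% of all genes called lower in parenchyma, meninges and CSF. Myc was called higher in parenchyma and meninges, where 24.6% and 16.6% of all genes were called higher. The median log2 fold change of the 5 genes was -1.30 in parenchyma, -1.43 in meninges and -1.35 in CSF, and that of all genes tested was -0.0021, -0.011 and -0.021. The 3 comparisons use the same blood libraries and are not independent of one another.

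**Figure D2:**
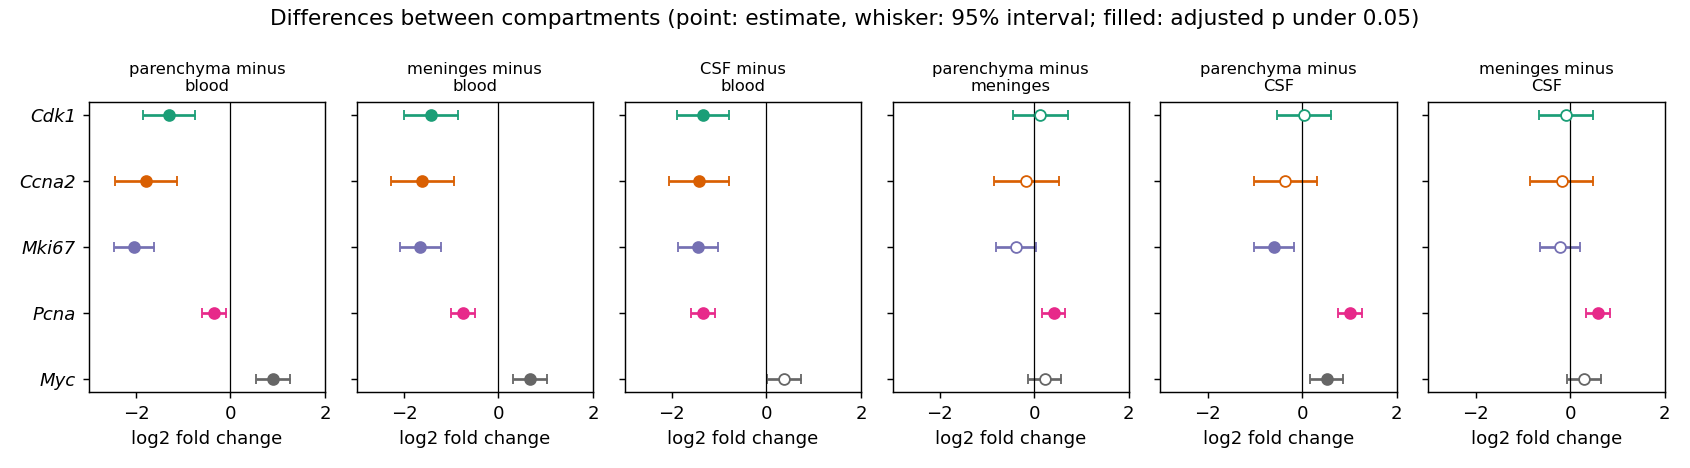
Log2 fold changes of the 5 genes (horizontal axes) in the 6 comparisons between compartments, first-named minus second-named. Points are estimates and whiskers 95% intervals from the fit of all genes, and filled points have an adjusted p under 0.05. Against blood the first 4 genes lie left of 0, and Pcna lies right of 0 in the 3 comparisons among CNS sites.

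Between parenchyma and CSF, Pcna and Myc were higher and Mki67 was lower in parenchyma. Pcna was 2.00-fold higher in parenchyma than in CSF (log2 fold change 1.00, SE 0.12, adjusted p = 4.03e-05), with all 3 parenchyma libraries above all 3 CSF libraries. Mki67 was 1.52-fold lower in parenchyma than in CSF (log2 fold change -0.60, SE 0.19, adjusted p = 0.0301), and parenchyma library 3, at 150.1 CPM, reached into the CSF range. Without CSF library 3 the adjusted p of this difference was 0.123, without parenchyma library 1 it was 0.108, and without parenchyma library 2 it was 0.119. Myc was 1.43-fold higher in parenchyma than in CSF (log2 fold change 0.52, SE 0.16, adjusted p = 0.0281), and its libraries did not overlap. That difference rested on parenchyma library 2, since without it the log2 fold change was 0.24 and the adjusted p 0.133. It also had an adjusted p of 0.0659 without CSF library 2 and of 0.0876 without CSF library 3. Between parenchyma and CSF 3 of the 5 genes were called, as were 32.7% of all genes tested.

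Meninges cells stood between parenchyma and CSF cells in their Pcna level, with means of 200.5 ± 16.4 CPM in parenchyma, 151 ± 5.19 CPM in meninges and 100.1 ± 17.6 CPM in CSF (SD, n = 3 each). Pcna was 1.51-fold higher in meninges than in CSF (log2 fold change 0.60, SE 0.12, adjusted p = 0.0181), and 1.32-fold higher in parenchyma than in meninges (0.41, SE 0.12, adjusted p = 0.0388). Pcna was the only gene of the 5 called in each of these comparisons, in which 2.51% and 12% of all genes tested were called. These shares were unstable, since the 289 genes called between meninges and CSF became 126 without meninges library 1 and 1046 with the library numbers as pairs, and the 1375 called between parenchyma and meninges became 739 without meninges library 3 and 2428 with pairs. With a single meninges library left out, the adjusted p between meninges and CSF was 0.0855 without library 1, and without library 3 it came out just above the threshold. The difference between parenchyma and meninges had an adjusted p of 0.0740 when libraries were scaled by size alone, and between 0.0522 and 0.133 without blood library 1, parenchyma library 1, parenchyma library 2 or any single meninges library. Mki67 had a log2 fold change of -0.39 between parenchyma and meninges (SE 0.20, adjusted p = 0.229). With the library numbers as pairs it was -0.41 with an adjusted p of 0.00222, and without parenchyma library 3 it was -0.66 with an adjusted p of 0.0317. Without parenchyma library 2 it was -0.22 with an adjusted p of 0.562, and without meninges library 3 it was -0.25 with an adjusted p of 0.558.

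Cdk1 and Ccna2 were not called between any CNS sites. The 95% interval of the parenchyma to CSF ratio was 0.695 to 1.52 for Cdk1 and 0.492 to 1.24 for Ccna2. For the meninges to CSF ratio it was 0.630 to 1.40 for Cdk1 and 0.553 to 1.40 for Ccna2, and for the parenchyma to meninges ratio 0.732 to 1.63 and 0.552 to 1.43. These intervals come from the fit without pairs. With the library numbers as pairs they were narrower, at 0.867 to 1.18 for Cdk1 and 0.626 to 0.964 for Ccna2 between parenchyma and CSF, where the adjusted p of Ccna2 was 0.0563. With pairs they were 0.798 to 1.10 for Cdk1 and 0.710 to 1.10 for Ccna2 between meninges and CSF, and 0.917 to 1.27 and 0.701 to 1.10 between parenchyma and meninges. The order of the Cdk1 means, meninges lowest at 17.3 ± 3.00 CPM, then CSF at 18.7 ± 6.24 CPM and parenchyma at 18.9 ± 7.20 CPM (SD, n = 3 each), lies within the spread of the libraries.

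**Figure D3:**
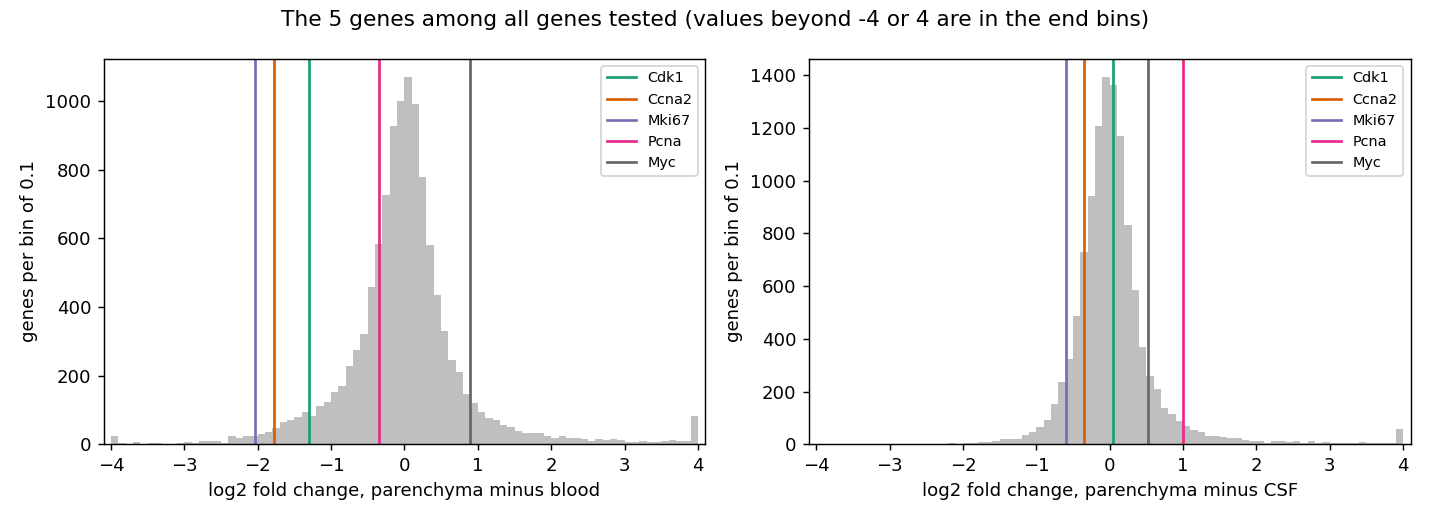
Distribution of log2 fold changes over the 11498 genes tested (grey bars, genes per bin of 0.1), for parenchyma minus blood on the left and parenchyma minus CSF on the right, with the 5 genes as vertical lines. Between parenchyma and blood, Mki67 at -2.04 lies far in the left tail and Pcna at -0.34 near the centre. Between parenchyma and CSF, Pcna at 1.00 lies farther right than the other 4 genes.

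The ratio of the counts of 2 genes in the same library does not depend on how libraries are scaled, and so shows unequal change directly. These ratios were chosen after the values had been seen. The ratio of Pcna to Mki67 counts was 2.02, 2.52 and 1.21 in parenchyma, 1.17, 1.14 and 0.835 in meninges, 0.674, 0.536 and 0.555 in CSF and 0.620, 0.531 and 0.513 in blood. Parenchyma and meninges libraries lay above all CSF and blood libraries, and CSF and blood overlapped. The difference in log2 ratio was 1.73 between parenchyma and blood and 1.65 between parenchyma and CSF. It was 0.91 between meninges and blood, 0.82 between meninges and CSF, and 0.08 between CSF and blood. For each of the first 4 differences the exact permutation test, two-sided, gave p = 0.1, and an adjusted p of 0.15 over 36 such tests. With 3 libraries on each side no lower p than 0.1 can be reached.

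The ratio of Pcna to Cdk1 counts gave a like order, with 13.6, 14.9 and 6.69 in parenchyma, 9.46, 10.3 and 7.08 in meninges, 6.27, 5.95 and 4.45 in CSF and 5.87, 5.65 and 4.96 in blood. Here parenchyma and meninges overlapped through parenchyma library 3, at 6.69. Mki67 counts relative to Cdk1 were between 5.52 and 6.70 in parenchyma, 8.12 and 8.99 in meninges, 8.01 and 11.1 in CSF and 9.48 and 10.6 in blood. The parenchyma libraries lay below all others, by 0.72 on the log2 scale against blood (exact permutation p = 0.1, the smallest possible here, adjusted p = 0.15). Ccna2 counts relative to Cdk1 were between 0.792 and 0.838 in parenchyma, and between 1.13 and 1.17 in blood, again without overlap. In meninges this ratio was between 0.935 and 1.05. In CSF it was between 0.844 and 1.27, a range that took in all meninges and blood libraries. The ratio of Myc to Mki67 was between 0.451 and 1.30 in parenchyma, 0.349 and 0.612 in meninges, 0.256 and 0.387 in CSF and 0.0735 and 0.114 in blood. Every CNS library lay above every blood library in this ratio, which follows from the levels of Myc and Mki67 given above and adds no evidence.

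**Figure D4:**
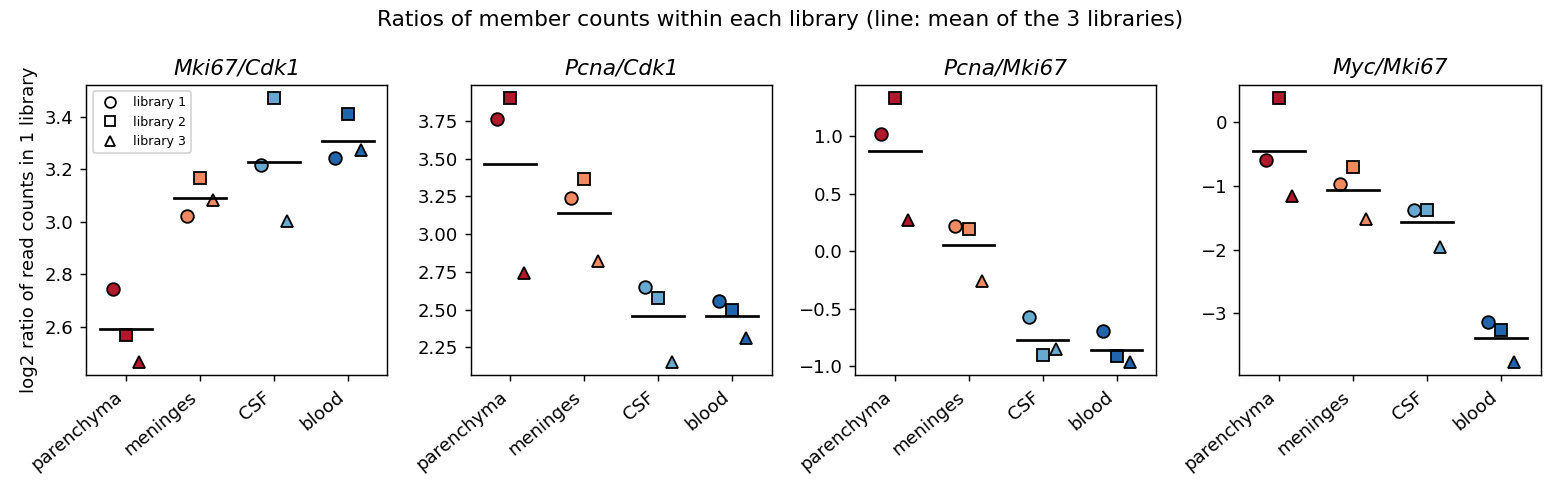
Log2 ratios of read counts of 2 genes in the same library (vertical axes) in parenchyma, meninges, CSF and blood. Symbols mark libraries 1, 2 and 3 and lines the means of 3 libraries. Mki67 relative to Cdk1 is lowest in parenchyma, and Pcna relative to Mki67 separates parenchyma and meninges from CSF and blood.

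Within a compartment Cdk1, Ccna2 and Mki67 varied together. In each of the 4 compartments library 3 had the highest level of all 3 genes, and library 2 the lowest level of Cdk1 and Ccna2. In parenchyma, library 3 held 27.2 CPM of Cdk1 and the other libraries 14.2 and 15.3 CPM. The deviations from the compartment means correlated over the 12 libraries at 0.95 for Cdk1 and Ccna2, 0.95 for Cdk1 and Mki67 and 0.85 for Ccna2 and Mki67. Myc deviated the other way, with correlations of -0.62 with Cdk1, -0.51 with Ccna2 and -0.77 with Mki67, and library 3 had the lowest Myc level in all 4 compartments, though in parenchyma library 1 was level with it. Pcna had correlations of 0.29 with Cdk1, 0.45 with Ccna2 and 0.08 with Mki67. In parenchyma and meninges library 3 had the lowest Pcna level, and in CSF and blood the highest. These correlations describe 12 libraries of which those with the same number may share a source, and each deviation is tied to the other 2 of its compartment. The share of entries aligned to several places was highest in library 3 in parenchyma and blood, and in library 2 in meninges and CSF. In libraries 1, 2 and 3 it was 35.8%, 37.2% and 42.2% in parenchyma and 43.7%, 61.4% and 43.9% in meninges. It was 37.4%, 40.4% and 40.2% in CSF and 41.5%, 36.5% and 65.2% in blood. The part of this share in the levels was not tested. Without parenchyma library 3 the log2 fold change against blood was -1.66 for Cdk1, -2.16 for Ccna2 and -2.30 for Mki67.

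**Figure D5:**
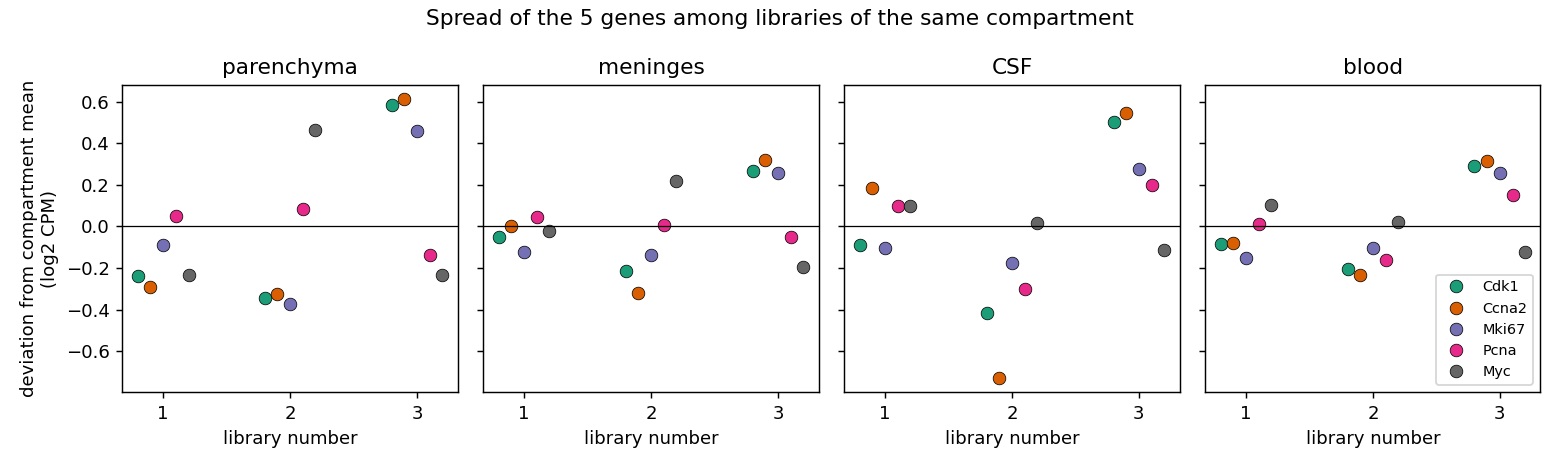
Deviation of each gene from its compartment mean (vertical axis, log2 CPM) by library number in parenchyma, meninges, CSF and blood. Points are single libraries. In each compartment Cdk1, Ccna2 and Mki67 lie above 0 in library 3, and Myc lies below 0 there.

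Across all 12 libraries the levels of Cdk1, Ccna2 and Mki67 in log2 CPM correlated at 0.93 to 0.98, which includes the difference of blood from the CNS sites that they share. Pcna correlated with Cdk1 at 0.63, with Ccna2 at 0.54 and with Mki67 at 0.44. Myc correlated with Mki67 at -0.90. Among the 8077 other genes that averaged 10 CPM or more, the number with a correlation above 0.9 was 237 for Cdk1, 270 for Ccna2, 442 for Mki67, 52 for Pcna and 62 for Myc by Pearson's r. By Spearman's rho it was 154 for Cdk1, 156 for Ccna2, 152 for Mki67, 63 for Pcna and 66 for Myc, so the order of the first 3 genes depended on the measure. The gene most like Cdk1 by Pearson's r was ENSRNOG00000008115, at 0.99, with 25.3 ± 8.37 CPM in parenchyma, 25.3 ± 4.92 CPM in meninges, 28.1 ± 8.39 CPM in CSF and 72.0 ± 13.9 CPM in blood (SD, n = 3 each). The gene most like Myc by Pearson's r was ENSRNOG00000021399, at 0.96, over a narrower range, with 29.0 ± 2.34 CPM in parenchyma, 27.1 ± 1.23 CPM in meninges, 25.1 ± 1.33 CPM in CSF and 23.0 ± 1.22 CPM in blood (SD, n = 3 each). By Spearman's rho other identifiers came first, ENSRNOG00000039284 for Cdk1 and ENSRNOG00000012628 for Myc. No name is given for these identifiers in the tables used.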

How the data were processed

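The deposited files hold raw read counts per Ensembl rat gene, 1 file per library, which the authors did not normalize. Per the submitters' processing notes CASAVA 1.8.2, STAR, SAMtools, HTSeq and DESeq2 were used, with no role stated. For the genome build, the annotation and the strand setting, nothing is given in the sources used here. The 5 summary lines of each file name no gene and stayed out of library sizes and tests. They hold the entries aligned to several places (35.8% to 65.2% of all entries), outside genes (15.5% to 21.9%) and ambiguous (0.0412% to 0.0911%).

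Counts were filtered with filterByExpr, which kept 11498 genes. The smallest share of a library's gene counts that fell in these genes was 99.88%. Their counts were scaled by the TMM method (trimmed mean of M values) and fitted in edgeR 4.0.16 (R 4.3.3) with compartment as the only term. Contrasts were two-sided, p-values were adjusted over all genes tested, and standard errors were taken from the F statistic. Log2 CPM used a prior count of 2. DESeq2 1.42.0 and other scalings, filters and sets of libraries were alternatives. No replicate pair of a compartment agreed within sampling noise, since chi-square per degree of freedom was at least 3.46 in every pair.

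Same-numbered libraries deviated together from their compartment means, with correlations of 0.149 to 0.450 in 5 of the 6 comparisons, while in meninges against blood the lowest was 0.0766. The values reported are from the fit without pairs. The fit with library number as a block, over all 12 libraries and thus all 6 comparisons, was an alternative. Its values stand beside a result where it changed a call or narrowed a stated interval. Of the 47357 rows of the RefSeq gene table, 0 carry an Ensembl identifier. The gene and marker lists, and the naming of like genes, could not be used. All 5 genes were described whatever they showed, with 1 identifier each most like Cdk1 and Myc. The genes and lists were chosen with earlier results of these data known. Intervals cover the spread between libraries, and the counting error stated covers counting only, as reads carry no molecular identifiers.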

Additional observations from a re-analysis of the deposited data

How the results depend on the processing

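Each log2 fold change was recomputed in 20 alternative fits, 12 of which left out a library. Against blood no value changed sign in these fits. Cdk1, Ccna2 and Mki67 were called in 60 of 60 values for each gene and Pcna in 54. Myc was called in 20 of 20 fits between parenchyma and blood and in 19 between meninges and blood, and between CSF and blood, where the reported fit did not call it, in 4 of 20. Comparisons among CNS sites were less stable, and the cause was not tested. Fits with libraries left out have fewer samples.

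With TMM replaced by library size alone, the log2 fold change of Pcna between parenchyma and meninges was 0.35 and no longer called, which left 0 of the 5 genes called there, and of all genes called there 38.5% were higher in parenchyma, against 55.1% with TMM. Without the filter Myc between CSF and blood (0.40) and Mki67 between parenchyma and meninges (-0.37) were called as well. So was Ccna2 between parenchyma and CSF (-0.36), and 2 of the 5 genes were called between parenchyma and meninges. This fit gave smaller standard errors at like log2 fold changes. For Ccna2 between parenchyma and CSF the SE was 0.12, against 0.31 in the reported fit, where the log2 fold change was -0.35. With replicate number added as a block, Myc between CSF and blood (0.37) and Mki67 between parenchyma and meninges (-0.41) were called as well, which made 2 of the 5 genes between parenchyma and meninges, and the block changed no other call. Without blood library 3 and meninges library 2, Pcna between parenchyma and blood (-0.26), Pcna between parenchyma and meninges (0.40, leaving 0 genes called) and Myc between meninges and blood (0.52) were no longer called, and Cdk1 between meninges and CSF was at 0.013. Without the 4 libraries numbered 2, Myc between CSF and blood (0.38) was called, and Mki67 (-0.52) and Myc (0.25) between parenchyma and CSF were not, leaving 1 gene there. Without parenchyma library 3 and meninges library 3, a fit chosen after seeing the data, Pcna was no longer called between parenchyma and blood (-0.27), parenchyma and meninges (0.44) or meninges and CSF (0.62), which left 0 genes called in the last 2 comparisons, and Cdk1 was at -0.091 between parenchyma and meninges and -0.34 between parenchyma and CSF.

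With each library left out in turn, the log2 fold change of Pcna ran from -0.41 to -0.27 between parenchyma and blood, 0.36 to 0.47 between parenchyma and meninges and 0.46 to 0.70 between meninges and CSF. Mki67 ran from -0.87 to -0.44 between parenchyma and CSF and -0.66 to -0.22 between parenchyma and meninges. Myc ran from 0.32 to 0.43 between CSF and blood, 0.24 to 0.64 between parenchyma and CSF and -0.058 to 0.34 between parenchyma and meninges. Cdk1 ran from -0.24 to 0.29 between parenchyma and meninges, -0.33 to 0.32 between parenchyma and CSF and -0.28 to 0.19 between meninges and CSF, and Ccna2 from -0.56 to 0.015 between parenchyma and meninges and -0.47 to 0.092 between meninges and CSF. Between 0 and 2 of the 5 genes were called between parenchyma and meninges, 1 to 3 between parenchyma and CSF and 0 to 1 between meninges and CSF. Over all genes, 289 were called between meninges and CSF, against 505 by DESeq2, 890 without the filter, 1046 with the block, 539 without the libraries numbered 2, 153 without parenchyma and meninges libraries 3, and as few as 126 with 1 library left out. Between parenchyma and meninges 1375 were called, against 2428 with the block, 764 without blood library 3 and meninges library 2, 713 without parenchyma and meninges libraries 3, and as few as 739 with 1 library left out. With Spearman's rho the number of genes above 0.9 was 154 for Cdk1, 156 for Ccna2 and 152 for Mki67, against 237, 270 and 442 with Pearson's r.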
